A study of Oryza sativa with 8 samples.

Results

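Cellulose synthase-like (CSL) genes code for enzymes of the plant cell wall, and 9 of them were followed in rice roots. Members were taken by name, as every probe set whose platform or RefSeq symbol or synonym, with or without the Os prefix, was one of 10 CSL names. Of these names, 9 had a probe set, and CSLE6 had none listed here and was not analysed. The 9 names led to 9 genes and 11 probe sets, against 17905 genes that the annotation names for 1 or more of the 57381 probe sets on the array. The gene LOC4328585 carries both CSLA1 and CSLA9 as synonyms and is called CSLA1 here, while CSLA9 stands for LOC4341571.

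Root RNA came from the rice cultivar IR64, with 1 Affymetrix array per sample and 2 arrays labelled as biological replicates in each of 4 groups. Transgenic plants (T) carried OsPSTOL1, a protein kinase gene tied to tolerance of phosphorus (P) deficiency, behind the constitutive 35S promoter, and the matching null segregants (NT) lacked the transgene. No probe set was named OsPSTOL1, so the transgene itself was not analysed here. Both kinds grew in pots in a greenhouse. Sampling was at heading in P-deficient soil but at mid-tillering in P-fertilised soil, and the effects of soil and growth stage cannot be told apart. The labels give neither the number of plants per sample nor the number of transgenic lines.

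Plant cell walls consist of cellulose microfibrils set in a matrix of hemicelluloses. Cellulose is made at the plasma membrane by CESA proteins, and CSL proteins are their relatives, many of which make the backbones of the matrix polysaccharides in the Golgi. By work in several species, CSLA proteins make mannans and glucomannans, CSLC proteins the glucan backbone of xyloglucan, and CSLF and CSLH proteins the mixed-linkage glucan that is typical of grasses. Some CSLD proteins act in cells that grow at their tip, such as root hairs. In bulk RNA, fewer cells of a type and less RNA per cell cannot be told apart.

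The T arrays of P-deficient roots stood apart in a sign of RNA integrity. The signal of the 3-prime over that of the 5-prime control probe set of GAPDH, a glycolytic enzyme, was 198 and 3.05 in P-deficient T roots (replicates 1 and 2), and 1.15 to 2.16 on the other 6 arrays. For actin, a cytoskeletal protein, this ratio was 272 and 20.3 in these T roots and 4.85 to 8.61 elsewhere. Markers of tissue differed between soils as well. LSI1, the silicon channel of rice roots, read 2015.2 to 2772 in P-deficient soil and 3248.4 to 3870.3 in P-fertilised soil. All 6 probe sets of 5 root marker genes were lower in P-deficient soil, against 24.8% of all probe sets. Their summed signal was 2179.2 to 3323.2 there and 10842.3 to 11251.3 in P-fertilised soil. Of 14 listed probe sets of panicle or pollen markers, 8 were tested. In P-deficient soil 6 of these were higher, against 22.3% of all probe sets. They were repeated probe sets of few names, MADS14, MADS2 and MADS15, while MADS4 and MADS8 were not higher. A MADS14 probe set that read 0.3 to 3.4 in P-fertilised soil was tested only through its P-deficient arrays. The summed signals of all 14 were 528.8 to 760.1 in P-deficient soil against 238.2 to 265.1. MADS6, a floral gene, read 2.2 to 2.7 over all arrays. Green tissue markers summed to 256 to 447.5 in P-deficient soil and 262.1 to 1421.7 in P-fertilised soil, where the highest value was that of T replicate 2. The part of these differences in the CSL results was not tested.

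Probe sets whose mean log2 value lay in the lowest 40 percent were not tested. Of the 11 CSL probe sets, 10 passed this filter, and these covered all 9 genes. The 1 left out was a probe set of CSLF6 that read 0.5 to 5.7 on every array. Between soils, over both genotypes, 7 of the 10 probe sets passed the threshold (a limma p under 0.05 after Benjamini-Hochberg adjustment over all probe sets tested), 2 higher and 5 lower in P-deficient soil. Over all 34316 probe sets tested, 47.1% passed in this comparison, 22.3% higher and 24.8% lower. The members were chosen with earlier results of these data known, so a share above that of all probe sets may reflect the choice. CSLA5 and CSLD2 rose in P-deficient soil, and CSLA1, CSLC3, CSLF6, CSLH1 and CSLD1 fell. The arrays of the soils did not overlap for 7 of the 10 probe sets, against 43.9% of all probe sets. The median change was -0.31 over the members and 0.01 over all probe sets, on the log2(signal + 32) scale that is used for every difference here. In NT plants, with the spread pooled over all 4 groups, 6 of 10 passed (2 higher and 4 lower), against 32.5% of all probe sets (15.5% higher and 17.1% lower). In a fit of the 4 NT arrays alone, which leaves out the T arrays with the highest GAPDH ratios, 6 of 10 passed, against 26.9% of all probe sets. In T plants 7 of 10 passed (2 higher and 5 lower), against 35.7% (15.5% higher and 20.2% lower).

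**Figure D1:**
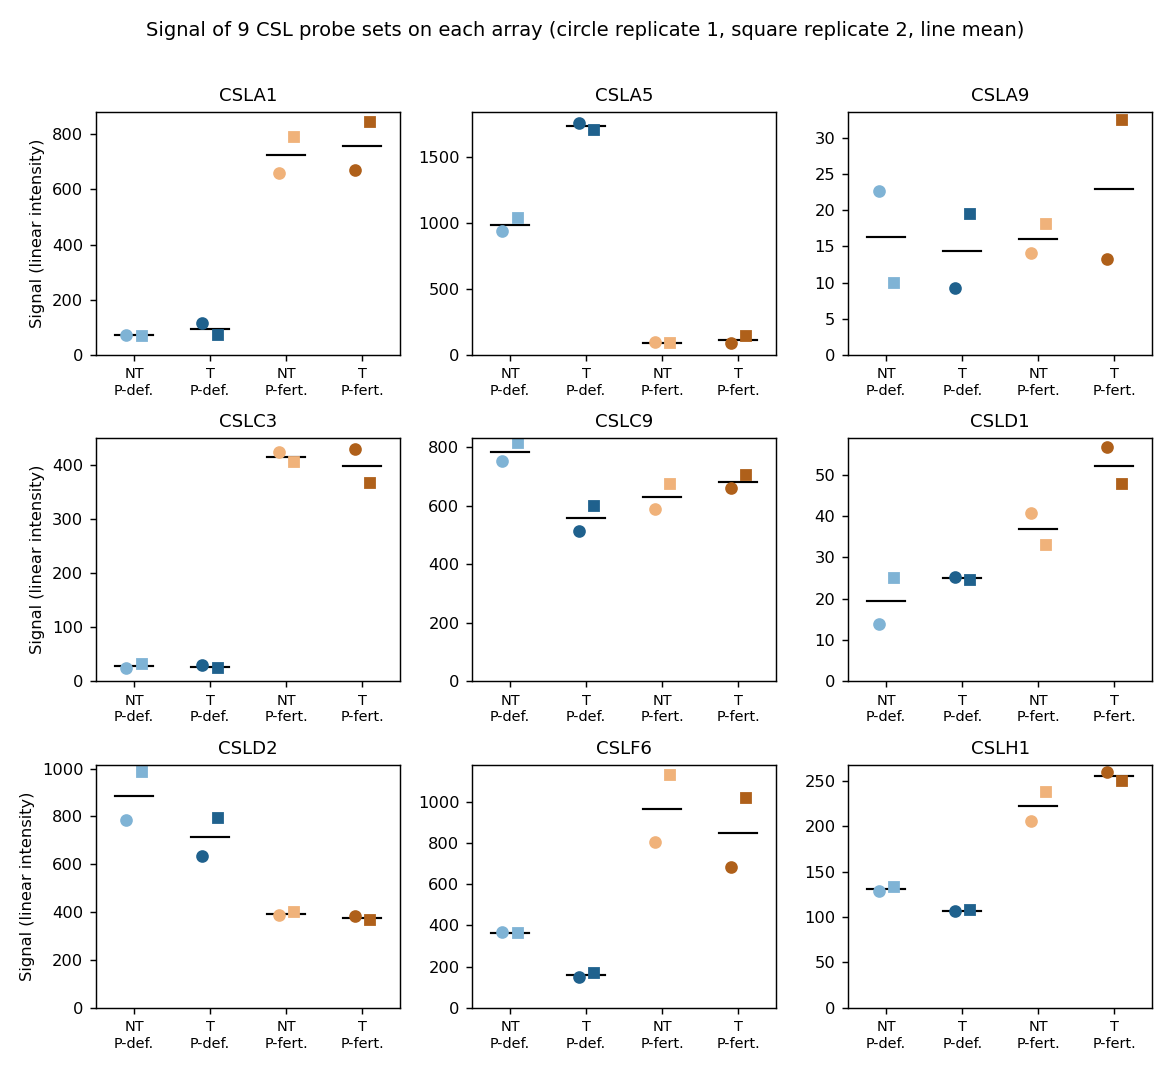
Signal on a linear intensity scale (y axis, from 0) of 1 probe set for each of the 9 CSL genes, by group (x axis: null segregants, NT, and transgenic plants, T, in P-deficient and P-fertilised soil). Circles are replicate 1, squares replicate 2 and lines the mean of 2 arrays. CSLA5 and CSLD2 were higher on all 4 P-deficient arrays than on any P-fertilised array, and CSLA1, CSLC3, CSLD1, CSLF6 and CSLH1 were lower.

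The 3 CSLA genes, of the subfamily known for mannan synthesis, went different ways. CSLA5 (LOC4332966) read 1759.3 and 1704.4 (T, P-deficient), 935.3 and 1036.1 (NT, P-deficient), 87.8 and 140 (T, P-fertilised) and 98.4 and 86.2 (NT, P-fertilised). The lowest P-deficient array lay far above the highest P-fertilised one. Over both genotypes the mean signal was 13.2 times as high in P-deficient soil. The difference was 3.33 ± 0.14 (log2, SE, limma adjusted p = 7.91e-07, n = 4 arrays per soil). It was 3.68 with a pseudocount of 1 and 2.80 with 100. In NT plants the means were 985.7 and 92.3, a smaller difference of 3.03 ± 0.20, against 3.62 ± 0.20 in T. A smaller absolute change was found in 98.9% of all probe sets tested. The probe set of CSLA5 carries A1 in its name where most carry S1, and whether its probes read the sense strand is not given in the sources used here.

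CSLA1 (LOC4328585) changed the other way. It read 113.8 and 72.3 (T, P-deficient), 72 and 68.2 (NT, P-deficient), 669.5 and 843.2 (T, P-fertilised) and 660.6 and 788.7 (NT, P-fertilised). All 4 P-deficient arrays were low, with T replicate 1 the highest of them. The mean signal was 9.08 times as high in P-fertilised soil, a difference of -2.78 ± 0.15 for P-deficient minus P-fertilised soil (limma adjusted p = 2.60e-06). This difference was -3.19 with a pseudocount of 1 and -2.21 with 100. Relative to P-fertilised soil, CSLA5 and CSLA1 thus moved in opposite directions. The third gene, CSLA9 (LOC4341571), stayed low, at 9.2 to 32.5 over the 8 arrays, with overlapping soils and a difference of -0.12 (95% interval -0.46 to 0.22, limma adjusted p = 0.547).

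The CSLC genes belong to the subfamily that makes the xyloglucan backbone, as shown in nasturtium and Arabidopsis. CSLC3 (LOC4345095) read 30.3 and 24 (T, P-deficient), 25.3 and 31.3 (NT, P-deficient), 430.3 and 367 (T, P-fertilised) and 425.4 and 407.2 (NT, P-fertilised). The genotypes overlapped within each soil, while the soils were far apart. CSLC3 fell by 2.88 ± 0.11 in P-deficient soil (limma adjusted p = 6.01e-07), from a mean signal of 407 to 27.7. No fold is given, as no background is stated for signals this low, and the value was -3.84 with a pseudocount of 1 and -1.99 with 100. Its change was nearly the same in NT (-2.90 ± 0.16) and in T (-2.86 ± 0.16), and the difference between these was 0.03 (95% interval -0.49 to 0.55).

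CSLC9 (LOC4334258) showed no shared change between soils. It read 514.5 and 597.9 (T, P-deficient), 753.6 and 815.6 (NT, P-deficient), 660 and 704.7 (T, P-fertilised) and 587 and 672.6 (NT, P-fertilised). Over both genotypes the difference was 0.01 (95% interval -0.24 to 0.26, limma adjusted p = 0.944). The NT arrays were higher in P-deficient soil and the T arrays lower, without overlap in either genotype, as in 2.54% of all probe sets. Neither passed, at 0.31 ± 0.15 in NT (limma adjusted p = 0.168) and -0.28 ± 0.15 in T (adjusted p = 0.194).

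Some CSLD genes are known from tip growth, and CSLD1 is needed for root hair growth in rice. CSLD1 (LOC4349505) had low signals, of 25.3 and 24.5 (T, P-deficient), 13.9 and 25.1 (NT, P-deficient), 56.7 and 47.7 (T, P-fertilised) and 40.7 and 32.9 (NT, P-fertilised). The soils did not overlap, although the nearest arrays were 25.3 and 32.9. CSLD1 fell by 0.49 ± 0.11 over both genotypes (limma adjusted p = 0.00608), with a mean signal of 22.2 there and 44.5 in P-fertilised soil. Its size depended on the pseudocount, at -0.98 with 1 and -0.24 with 100, and it passed in all alternatives (limma adjusted p-values of 0.00349 to 0.0274). The difference passed in T (-0.56 ± 0.16, adjusted p = 0.022) and not in NT (-0.42 ± 0.16, adjusted p = 0.0688), and these did not differ by the test of their difference (-0.14 ± 0.22, adjusted p = 0.952). The call in T was lost with quantile normalization (adjusted p = 0.0821), with no filter on low values (0.0597), and without any 1 of the 4 T arrays (0.058 to 0.122). In NT it was gained without NT replicate 2 of P-deficient soil (0.0321).

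CSLD2 (LOC4339895) moved opposite to CSLD1. It read 636.5 and 794 (T, P-deficient), 784.9 and 985.5 (NT, P-deficient), 383.4 and 367.5 (T, P-fertilised) and 385.9 and 398.4 (NT, P-fertilised). Every P-deficient array was above every P-fertilised one, with a wider spread between replicates in P-deficient soil (SD 111 in T and 142 in NT, against 11.2 and 8.84). CSLD2 rose by 0.99 ± 0.12 (limma adjusted p = 0.000266), a mean signal 2.09 times as high. It passed in both genotypes, at 1.10 ± 0.17 in NT (adjusted p = 0.00179) and 0.87 ± 0.17 in T (adjusted p = 0.00531).

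CSLF6 and CSLH1 stand for the mixed-linkage glucan of grasses, and CSLF6 is the main synthase of that glucan in rice. The CSLF6 (LOC4344719) probe set with clear signal read 149.4 and 169.3 (T, P-deficient), 367.2 and 362 (NT, P-deficient), 682.2 and 1018.2 (T, P-fertilised) and 804.6 and 1133 (NT, P-fertilised). The order was T below NT in P-deficient soil, then both genotypes of P-fertilised soil, which overlapped. CSLF6 fell by 1.75 ± 0.16 over both genotypes (limma adjusted p = 4.89e-05), with a mean signal 3.47 times as high in P-fertilised soil. The fall passed in NT (-1.32 ± 0.23, adjusted p = 0.00296) and in T (-2.18 ± 0.23, adjusted p = 0.000197). The other CSLF6 probe sets stayed low on all arrays, at 0.5 to 5.7 and at 6.6 to 17.9. The latter, which carries A1 in its name, had a difference of 0.14 ± 0.10 (adjusted p = 0.299), so the fall of CSLF6 was read by 1 of its 3 probe sets.

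CSLH1 (LOC4348359) read 106.4 and 107.5 (T, P-deficient), 128.7 and 133.4 (NT, P-deficient), 260.4 and 250.5 (T, P-fertilised) and 205.7 and 238.4 (NT, P-fertilised). Replicates lay close together, and the soils did not overlap. CSLH1 fell by 0.84 ± 0.11 (limma adjusted p = 0.000276), with a mean signal 2.01 times as high in P-fertilised soil. It passed in T (-1.05 ± 0.15, adjusted p = 0.000947) and in NT (-0.64 ± 0.15, adjusted p = 0.0125), the latter not without NT replicate 2 of P-fertilised soil (adjusted p = 0.105). T was below NT in P-deficient soil and above it in P-fertilised soil, without overlap in either, as in 5.3% of all probe sets.

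**Figure D2:**
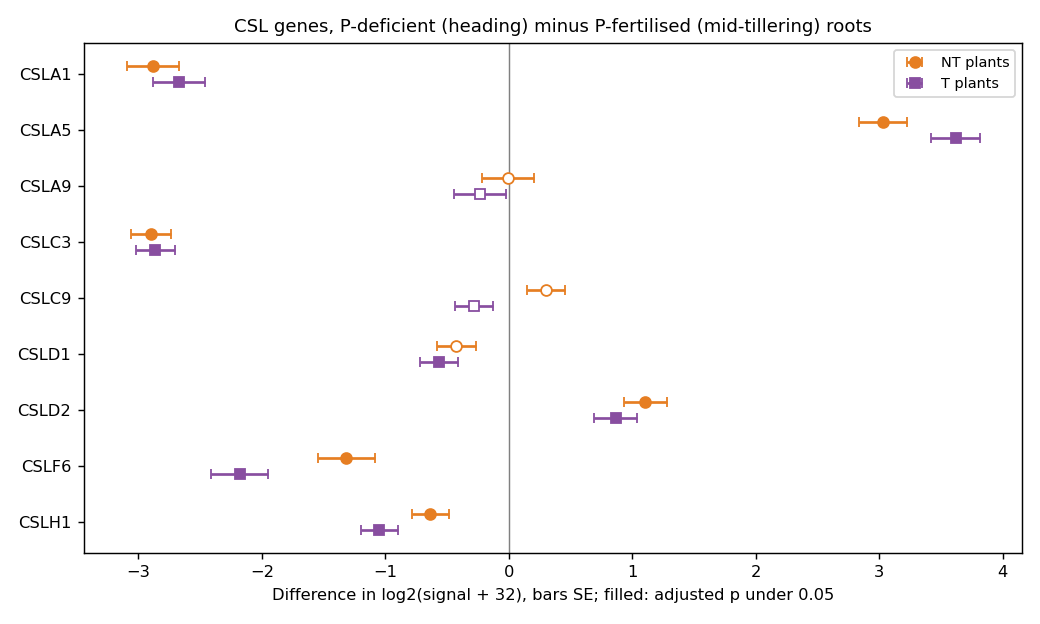
Difference between P-deficient (heading) and P-fertilised (mid-tillering) roots on the log2(signal + 32) scale (x axis) for 9 CSL genes, in NT plants (circles) and T plants (squares), with bars of 1 SE from limma on 2 arrays per group. Filled symbols passed at an adjusted p under 0.05. CSLA5 (3.03 in NT and 3.62 in T) and CSLD2 lie to the right, and CSLC3 (-2.90 and -2.86), CSLA1, CSLF6 and CSLH1 to the left in both genotypes.

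Between genotypes, 0 of the 10 CSL probe sets passed in P-deficient soil in limma, where 0.108% of all probe sets did. An unadjusted p under 0.05 was reached by 3 of them, CSLA5, CSLF6 and CSLC9, against 13.3% of all probe sets. CSLA5, at 1731.85 ± 38.8 in T and 985.7 ± 71.3 in NT (SD, n = 2 arrays each), differed by 0.80 ± 0.20 for T minus NT (95% interval 0.35 to 1.24, limma adjusted p = 0.195, n = 2). CSLF6 read 159 ± 14.1 in T and 364.6 ± 3.68 in NT, a difference of -1.05 ± 0.23 (95% interval -1.58 to -0.53, limma adjusted p = 0.17). CSLC9 read 556.2 ± 59.0 in T and 784.6 ± 43.8 in NT, a difference of -0.48 ± 0.15 (95% interval -0.83 to -0.12, limma adjusted p = 0.279). For all 3 genes the replicates of T and of NT did not overlap. This also held for CSLH1 (lower in T) and CSLA1 (T replicate 2 at 72.3 and NT replicate 1 at 72), which makes 5 of 10 probe sets against 40.5% of all.

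The differences of these 3 genes kept their direction in all 16 alternatives tried, and none of them passed in any. The range was 0.72 to 0.87 for CSLA5 (adjusted p-values of 0.137 to 0.626), -1.19 to -0.84 for CSLF6 (0.132 to 0.608) and -0.58 to -0.37 for CSLC9 (0.166 to 0.721). Without T replicate 1, whose GAPDH ratio was 198, the difference was 0.77 for CSLA5, -0.98 for CSLF6 and -0.37 for CSLC9. Without T replicate 2 it was 0.82, -1.13 and -0.58. The T arrays of P-deficient soil had the highest GAPDH ratios, and where the CSL probe sets lie along their transcripts is not given in the sources used here, so the part of RNA quality in these differences was not tested.

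**Figure D3:**
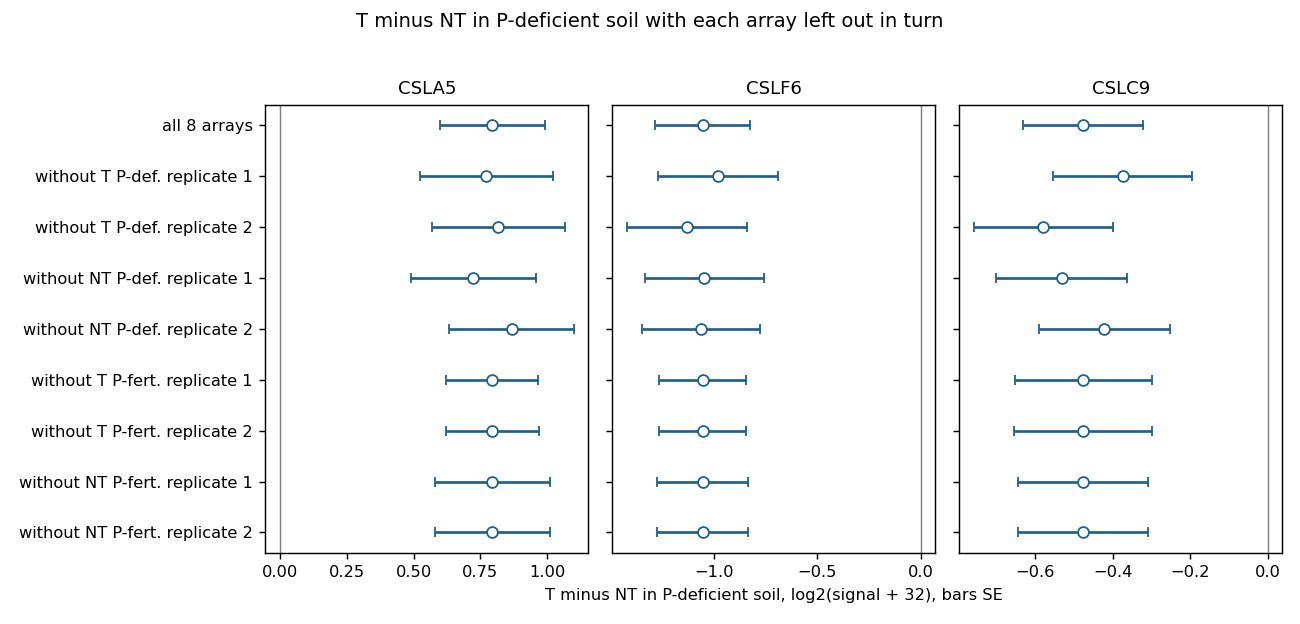
Difference of T minus NT in P-deficient soil on the log2(signal + 32) scale (x axis, a separate scale in each panel) for CSLA5, CSLF6 and CSLC9, with all 8 arrays and with each array left out in turn (y axis). Bars are 1 SE from limma. CSLA5 stayed above 0, and CSLF6 and CSLC9 below 0, and no value passed at an adjusted p under 0.05.

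The other CSL genes differed less between genotypes in P-deficient soil. CSLD2 differed by -0.30 ± 0.17, CSLA1 by 0.27 ± 0.21, CSLH1 by -0.23 ± 0.15 and CSLD1 by 0.15 ± 0.16. CSLC3 differed by -0.03 (95% interval -0.40 to 0.34) and CSLA9 by -0.06 (95% interval -0.54 to 0.42). The values for CSLA9 and CSLD1 changed sign when 1 array was left out, and that of CSLC3 did so too. Of the 10 probe sets 3 lay above 0 and 7 below, with a median of -0.09 against -0.02 over all probe sets.

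In P-fertilised soil 0 of 10 passed, against 0.00291% of all probe sets, and 0 had an unadjusted p under 0.05, against 2.61%. CSLD1 differed most, at 0.29 ± 0.16 (95% interval -0.06 to 0.65, limma adjusted p = 1), and the differences of the other members lay between -0.19 for CSLF6 and 0.21 for CSLA5. The genotypes did not overlap for CSLD1 and CSLH1, higher in T, and for CSLD2, lower in T, or 3 of 10 against 36.5%. Over both soils 0 of 10 passed, against 0.0321%, and CSLF6 (-0.62 ± 0.16, adjusted p = 0.381) and CSLA5 (0.50 ± 0.14, adjusted p = 0.396) had an unadjusted p under 0.05, against 9.63% of all probe sets.

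Whether the genotype difference itself changed with soil was tested as an interaction, in which 0 of 10 members and 0% of all probe sets passed. An unadjusted p under 0.05 was reached by CSLF6 (-0.86 ± 0.33, limma adjusted p = 0.829) and CSLC9 (-0.59 ± 0.22, limma adjusted p = 0.829), against 5.92% of all probe sets. CSLA5 had 0.59 ± 0.28 (adjusted p = 0.832) and CSLH1 -0.41 ± 0.21 (adjusted p = 0.852). The larger differences in P-deficient soil were therefore not shown to differ from those in P-fertilised soil.

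**Figure D4:**
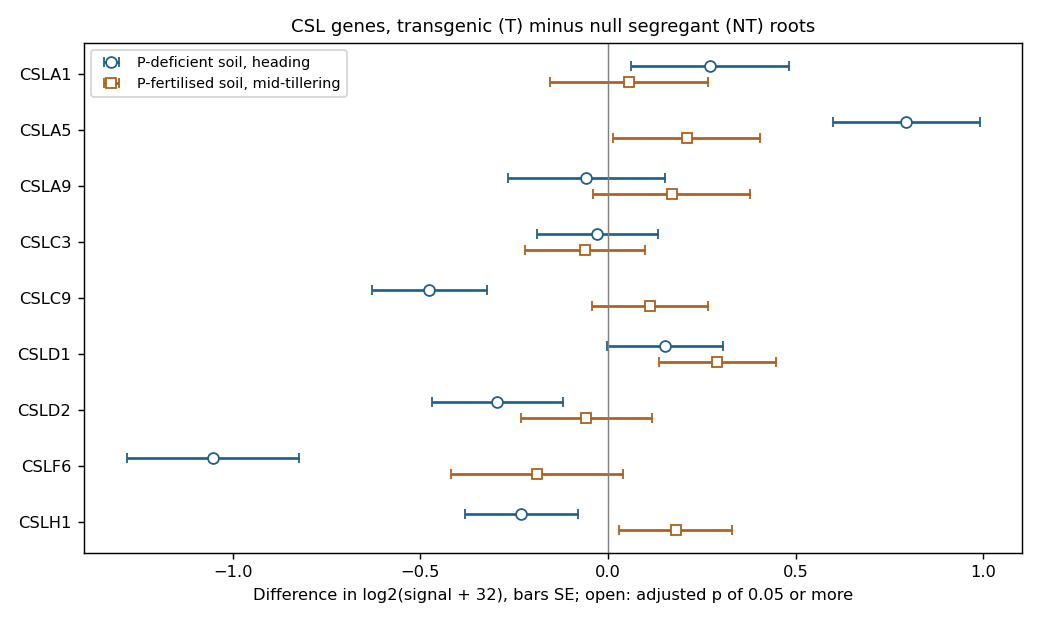
Difference of T minus NT roots on the log2(signal + 32) scale (x axis) for 9 CSL genes, in P-deficient soil at heading (circles) and P-fertilised soil at mid-tillering (squares), with bars of 1 SE from limma on 2 arrays per group. All symbols are open, since none passed at an adjusted p under 0.05. CSLF6 (-1.05) and CSLA5 (0.80) in P-deficient soil lie farthest from 0.

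Genes with the pattern most like each changed CSL gene were looked up among 2783 probe sets of genes with a literature name, by Pearson's r of log2(signal + 32) over the 8 arrays. These arrays share the split between soils, so r is given as a description. Each gene was picked by r on these same arrays, so a shared order of arrays is no separate evidence for the CSL gene. CSLA1 was most like EXPB3, a beta-expansin gene (r = 0.999). EXPB3 read 25.9 to 92.2 in P-deficient soil and 1290.5 to 1890.1 in P-fertilised soil. In both genes the highest P-deficient array was T replicate 1, whose GAPDH ratio was 198. The part of RNA quality in this likeness was not tested. CSLC3 was most like OsCASPL1U3, of the family of Casparian strip membrane proteins (r = 0.999). CSLA5 was most like DAGAT (r = 0.998), whose P-deficient signals were 999.8 and 977.8 (T) and 836.8 and 796.8 (NT). CSLD2 was most like CIPK6, for a CBL-interacting protein kinase (r = 0.999), and CSLH1 was most like OsC3H9 (r = 0.997). CSLF6 was most like ACS1 (r = 0.990). ACS1, picked for this likeness, had the same order of groups in P-deficient soil, with 4.3 and 7.2 in T and 18.7 and 24.7 in NT. These signals were low, with no stated background, and the T arrays there had the highest GAPDH ratios. CSLD1, whose signals were low, was most like BGLU20 (r = 0.966). An r over 0.95 was reached by 424 probe sets for CSLC3, 412 for CSLA1, 241 for CSLA5, 202 for CSLH1, 135 for CSLD2, 42 for CSLF6 and 6 for CSLD1.

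Other genes of wall synthesis were counted beside the members for the same comparison of soils, in which 22.3% of all probe sets were higher and 24.8% lower. The other CSL genes (10 genes tested with 12 probe sets) had 2 probe sets higher and 5 lower in P-deficient soil, with a median of -0.30 against -0.31 in the members. Of those with the smallest p, CSLF7 fell by 1.33 ± 0.11 (limma adjusted p = 2.14e-05), CSLC2 fell by 1.31 ± 0.12 (adjusted p = 4.18e-05) and CSLF8 fell by 1.35 ± 0.14 (adjusted p = 9.33e-05). CSLF7 and CSLF8 belong to the same subfamily as CSLF6, and CSLC2 to that of CSLC3. The mean signals of CSLF7 (14.68) and CSLF8 (2.825) were low in P-deficient soil, against 85.35 and 58.05 in P-fertilised soil. The sizes of these 2 changes therefore depend on the pseudocount of 32. CSLF8 read 0.9 to 4.3 on the P-deficient arrays, below the signal of about 10 at the filter limit. It was tested only through its P-fertilised arrays, so its call is no support for the fall of CSLF6.

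The CESA genes, which make cellulose itself, had 10 of 12 probe sets lower and 0 higher, against 24.8% and 22.3% of all probe sets, and a median of -1.68 against 0.01. CESA7 fell by 2.38 ± 0.18 (limma adjusted p = 1.76e-05), CESA3 fell by 1.73 ± 0.16 (adjusted p = 3.95e-05) and CESA4 fell by 1.69 ± 0.16 (adjusted p = 4.79e-05). CESA4 and CESA7 are known for cellulose of secondary walls and CESA3 for that of primary walls. The lists, too, were chosen with earlier results of these data known. Whether CSL and CESA genes differed as groups was not tested.

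Further hemicellulose genes, mainly of the GT43 family of xylan synthesis and of arabinose supply to the wall (11 genes, 13 probe sets tested), had 2 probe sets higher and 8 lower and a median of -0.58. UAM3, for a UDP-arabinose mutase, fell by 1.72 ± 0.17, GT43H fell by 1.10 ± 0.12 and GT43E fell by 0.92 ± 0.11 (limma adjusted p = 6.81e-05, 0.000115 and 0.000159). Genes of nucleotide sugar supply (10 genes, 13 probe sets tested) had 3 higher and 7 lower with a median of -0.39. Among them the sucrose synthase gene SUS4 rose by 4.63 ± 0.17 (limma adjusted p = 4.70e-07), while SUS5 fell from 171.8 in P-fertilised to 19.02 in P-deficient soil (adjusted p = 4.40e-06) and a probe set of SUS1 fell by 3.59 ± 0.32 (adjusted p = 4.11e-05). That SUS1 probe set may also read related transcripts, as its name ends in x_at. The single gene found for root hair growth besides CSLD1 was SRH2, also named XXT1, for an enzyme that adds xylose to xyloglucan, which is also among the hemicellulose genes and rose by 0.92 ± 0.16 (limma adjusted p = 0.00167). Between genotypes, 0 probe sets of these lists passed in either soil in limma. In P-deficient soil 3 probe sets of the other CSL genes, 2 of the CESA genes, 0 of the further hemicellulose genes and 2 of the sugar genes had an unadjusted p under 0.05, against 13.3% of all probe sets. In P-fertilised soil 1 probe set of the CESA genes had, and 0 of the other 3 lists, against 2.61%.

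**Figure D5:**
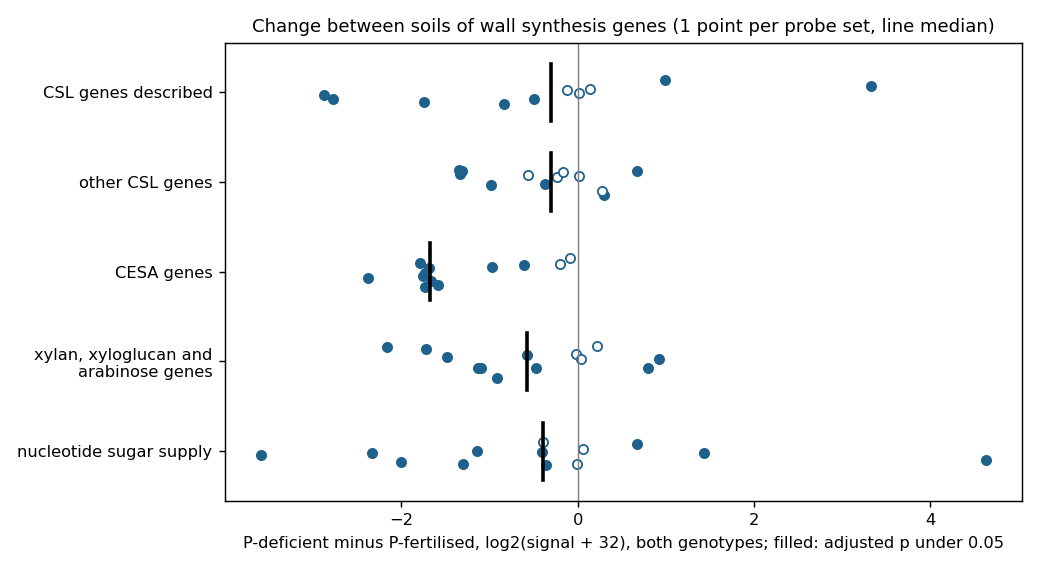
Difference between P-deficient and P-fertilised roots over both genotypes on the log2(signal + 32) scale (x axis), for each tested probe set of 5 gene lists (y axis, with points spread vertically for sight only). Filled points passed at a limma adjusted p under 0.05, and black lines are medians. The described CSL genes spread from -2.88 to 3.33 around a median of -0.31, while all CESA probe sets lie below 0 around -1.68.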

How the data were processed

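Root RNA of 8 samples was measured on Affymetrix rice arrays. The authors deposited linear intensity values for 57381 probe sets, made with GCOS per the submitters' processing notes, which name no version. Trimmed means (2 percent cut from either side) of 100.01 to 100.02 per array show that these intensities were scaled to a common level. No normalization was added.

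Values were analysed as log2(value + 32), a scale on which changes of low signals are understated. Left out were the 187 control probe sets and the 40 percent of the others with the lowest mean (a limit of 5.39 on that scale), and 34316 were kept. A model with 1 mean for each of the 4 groups was fitted by lmFit and a trended eBayes (limma 3.58.1, R 4.3.3, with 4 residual and a median of 4.28 prior degrees of freedom), using Benjamini-Hochberg adjustment over all probe sets kept and a threshold of 0.05. The code was tested on simulated data. P-values measure the spread between 2 arrays per group, pooled over groups, and the number of arrays limits the precision.

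Probe sets with 1 gene in the platform annotation were named through RefSeq symbols and synonyms (assembly ASM3414082v1, used for names only). A literature name was read as a symbol or synonym that is no locus or clone name. The text names every member, up to 3 genes per list with the smallest p between soils, and the gene most like each changed member. Lists with members missing from the annotation were smaller than planned. The members and lists were chosen with earlier results of these data known. Alternatives were other pseudocounts, quantile normalization, other filters, a replicate block, no trend, fits of the groups compared alone and each array left out.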

Additional observations from a re-analysis of the deposited data

Results flagged for a closer look

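CSLH1 was lower on both T arrays than on both NT arrays in P-deficient soil and higher in P-fertilised soil, so the arrays parted in opposite directions. The test of this difference between soils gave -0.41 ± 0.21 (log2, SE, limma adjusted p = 0.852), and 5.3% of all probe sets showed such a pattern.

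CSLC9 was higher in P-deficient than in P-fertilised soil on the NT arrays and lower on the T arrays. The test of this difference gave -0.59 ± 0.22 (limma adjusted p = 0.829), and 2.54% of all probe sets parted in this way. Neither gene passed. The T arrays of P-deficient soil, on which both rest, were also those with the highest 3-prime over 5-prime signal of GAPDH (198 and 3.05), whose part was not tested.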

How the results depend on the processing

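Across 70 member changes and up to 16 alternatives each, 1068 of 1076 values stayed on their side of the threshold, 7 lost a call (6 of them CSLD1 in T) and 1 gained one. No called change turned its sign. With each array left out, a group holds 1 array that is assumed to vary like the others. The CSL probe sets past the threshold between soils were 7 in every alternative over both genotypes, 5 to 7 in NT and 6 to 7 in T, and 0 in every alternative between genotypes. Quantile normalization moved 9 of 44 group levels by over 1 SD, and no median change of all probe sets by over 0.1. The count over all probe sets with an array left out was 6795 to 11078 between soils in NT (main 11166) and 7821 to 13869 in T (main 12235), and for T minus NT it was 8 to 506 in P-deficient soil (main 37), 0 to 7 in P-fertilised soil (main 1), 0 to 236 over both soils (main 11) and 0 to 140 for the interaction (main 0). The lowest and highest in P-deficient soil were without NT replicate 2 and without T replicate 2 of that soil. In P-deficient soil it was also 13 with no filter and 12 on the 4 arrays alone. It was 0 with a pseudocount of 1 or no filter in P-fertilised soil and over both soils, and 0 on the 4 arrays of P-fertilised soil alone. The causes were not tested. With the replicate block the count for T minus NT was 19 in P-deficient soil, 0 in P-fertilised soil and 0 over both soils. Whether same-numbered arrays share more than a number is not given in the labels. Their deviations correlated at -0.261 (T with NT in P-deficient soil) to 0.21 (T with NT in P-fertilised soil) across groups. These values cannot decide whether the arrays were paired. With the numbers crossed in P-deficient soil alone, chosen after seeing the data, 306 passed, 0 of them CSL probe sets. No detection calls were used, so low signals such as those of CSLA9 and CSLD1 have no stated background.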
